A study of Mus musculus with 3 samples.

Results

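Glutamate and GABA receptor genes were followed across glioma cells, neurons, astrocytes and other cells of mouse brainstem. The members were all features whose symbols follow the naming of AMPA (Gria), NMDA (Grin), kainate (Grik), metabotropic glutamate (Grm), GABA-A (Gabr) and GABA-B (Gabbr) receptor subunits, and 45 of 32285 features met that rule: 4 AMPA, 7 NMDA, 5 kainate, 8 metabotropic glutamate, 19 GABA-A and 2 GABA-B receptor genes. Single-cell RNA was sequenced with the 10x Genomics 3' chemistry, in which a unique molecular identifier (UMI) marks each captured transcript, in 3 libraries. The 2 tumour libraries came from untreated B6(Cg)-Tyrc-2J/J mice whose brains had received 100000 cells of the murine diffuse midline glioma line DIPG4423 at 6 weeks of age, with tissue taken 3 weeks later. The third library, here called normal, came from untreated, tumour-free brainstem of the same strain. The graft is a single cell line in a host with its own brain cells, so every tumour library holds both. After filtering, 10550 cells of tumour 1, 9407 of tumour 2 and 3083 of the normal library remained, with medians of 8783.5, 11297 and 2395 UMIs per cell. Between 13 and 37 barcodes were shared by any pair of libraries.

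Ionotropic glutamate receptors are cation channels built from 4 subunits. AMPA receptors carry most fast excitation, and their GluA2 subunit, encoded by Gria2, makes the channel nearly impermeable to calcium once its transcript is edited. NMDA receptors need the GluN1 subunit from Grin1 to reach the membrane. Metabotropic glutamate receptors signal through G proteins. GABA-A receptors are chloride channels that usually combine alpha, beta and gamma subunits, and GABA-B receptors are obligate pairs of the Gabbr1 and Gabbr2 products. Oligodendrocyte precursors receive glutamatergic and GABAergic synapses from neurons, and synapses between neurons and glioma cells that use AMPA receptors have been described in such gliomas.

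Glial progenitor-like cells, named from Pdgfra, Olig1, Olig2, Sox10 and 6 other markers, numbered 4366 in tumour 1 and 2100 in tumour 2, against 1 in the normal library. Their summed markers stood at 4808 and 4176 CPM (UMIs of a gene per 1000000 UMIs of the class), against 380 and 302 CPM in neuron-like cells of the same libraries. Xist, which silences one of a female pair of X chromosomes, stood at 1068 and 1059.1 CPM in them, and the 4 Y genes measured summed to 2.11 and 4.30 CPM. In astrocyte-like cells of the same libraries Xist stood at 30.3 and 19.4 CPM and the Y genes at 423 and 340 CPM, so the progenitor-like cells differed from the host cells in sex-linked expression. Neuron-like cells numbered 171, 309 and 607 and astrocyte-like cells 451, 122 and 194 in tumour 1, tumour 2 and normal. In neuron-like cells 0.616%, 1.23% and 0.805% of UMIs were mitochondrial and the nuclear RNA Malat1 stood at 97710, 111910 and 99600 CPM, against 6.97% and 6.28% and 23347 and 23253 CPM in progenitor-like cells. In astrocyte-like cells 6.68%, 6.00% and 8.29% of UMIs were mitochondrial and Malat1 stood at 143431, 165710 and 176832 CPM, above both other classes. The part of these RNA differences in the comparisons of progenitor-like with neuron-like and with astrocyte-like cells was not tested. The receptor genes were not used for clustering, but the classes were made from other genes of the same cells, so tests between classes are not independent of the clustering. Levels are 3' tags, counted once per molecule and not scaled to transcript length.

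Gria2 was the most abundant receptor transcript of the progenitor-like, neuron-like and astrocyte-like classes, and its promoter is shown for that reason. Beside it stand the promoters of 4 GABA-A subunit genes, Gabrg1, Gabra2, Gabra4 and Gabrb1, which lie together on chromosome 5 and were high together in astrocyte-like cells. Sequences are from RefSeq (GRCm38.p6), 5′ to 3′ on the strand of the gene, 300 bases around the start of transcription. Capitals mark GC boxes, the sequence GGGCGG on either strand (CCGCCC on the other); no match overlapped another.
Gria2, chr3:80802786-80803085, minus strand: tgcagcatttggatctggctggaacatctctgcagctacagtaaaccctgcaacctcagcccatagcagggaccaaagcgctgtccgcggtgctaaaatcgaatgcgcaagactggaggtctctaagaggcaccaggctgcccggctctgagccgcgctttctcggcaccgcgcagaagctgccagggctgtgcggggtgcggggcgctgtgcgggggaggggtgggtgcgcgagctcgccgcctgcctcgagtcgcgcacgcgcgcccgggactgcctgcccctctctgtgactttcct
Gabrg1, chr5:70842568-70842867, minus strand: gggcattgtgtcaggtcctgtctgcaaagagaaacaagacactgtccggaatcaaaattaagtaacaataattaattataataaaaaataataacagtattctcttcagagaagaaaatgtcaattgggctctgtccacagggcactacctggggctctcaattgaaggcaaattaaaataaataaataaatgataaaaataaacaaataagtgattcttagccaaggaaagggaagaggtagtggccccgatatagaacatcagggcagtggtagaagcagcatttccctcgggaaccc
Gabra2, chr5:71095800-71096099, minus strand: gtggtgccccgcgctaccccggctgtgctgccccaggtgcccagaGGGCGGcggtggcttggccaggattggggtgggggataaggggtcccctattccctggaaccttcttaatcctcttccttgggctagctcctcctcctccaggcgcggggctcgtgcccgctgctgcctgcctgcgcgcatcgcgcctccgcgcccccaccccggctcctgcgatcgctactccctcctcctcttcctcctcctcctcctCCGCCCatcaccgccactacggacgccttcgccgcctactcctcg
Gabra4, chr5:71658259-71658558, minus strand: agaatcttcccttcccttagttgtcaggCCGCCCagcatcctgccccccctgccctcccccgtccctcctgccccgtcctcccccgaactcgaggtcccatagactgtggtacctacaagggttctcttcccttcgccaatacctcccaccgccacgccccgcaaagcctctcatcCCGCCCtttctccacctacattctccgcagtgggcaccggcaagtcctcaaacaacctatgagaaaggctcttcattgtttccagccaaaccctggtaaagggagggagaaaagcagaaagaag
Gabrb1, chr5:71657671-71657970, plus strand: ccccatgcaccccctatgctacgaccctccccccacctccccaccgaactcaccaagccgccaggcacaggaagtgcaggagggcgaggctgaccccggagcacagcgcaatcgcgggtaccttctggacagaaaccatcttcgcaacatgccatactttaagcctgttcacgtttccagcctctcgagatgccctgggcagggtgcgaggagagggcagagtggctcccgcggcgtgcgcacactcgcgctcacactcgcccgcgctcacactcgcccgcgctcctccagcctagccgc
Gabra2 and Gabra4 held 2 GC boxes each, and Gria2, Gabrg1 and Gabrb1 held 0. CpG dinucleotides numbered 26 in Gria2, 25 in Gabra2, 25 in this start of Gabrb1, 12 in Gabra4 and 3 in Gabrg1, against a median of 7 over all promoters. Of the 45 receptor genes, 32 had an entry, with 39 promoters in all. Of these, 19 held a GC box, and 35.7% of all 32851 promoters of this length did. Gabra4 and Gabrb1 start head to head. Their gene bodies overlap by 196 bases in the GENCODE annotation, whose Gabrb1 start differs from the RefSeq start printed here.

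Of the 45 receptor genes, 34 passed the filter on low counts in the 2 tumour libraries; the other 11 were Grin3b, Grm2, Grm6, Gabra6, Gabrd, Gabre, Gabrp, Gabrq, Gabrr1, Gabrr2 and Gabrr3. Of these, 0 were higher in progenitor-like than in neuron-like cells (34.9% of all 14427 genes tested were), and 29 were lower (30.3% of all genes were). The receptor genes had a median log2 difference of -3.38, against 0.18 over all genes tested. All 4 AMPA, 5 of 6 NMDA, 4 of 5 kainate, 5 of 6 metabotropic glutamate, 9 of 11 GABA-A and both GABA-B receptor genes were among the lower ones. At an unadjusted p under 0.05 edgeR listed 31 of the 34 and DESeq2 listed 30. The 5 that did not pass were Gabra4 (-1.19), Gabra3 (-0.46), Grm5 (0.01), Grin3a (0.34) and Grik3 (1.01, adjusted p = 0.0540 with edgeR's quasi-likelihood test and Benjamini-Hochberg adjustment, as throughout). The scaling moves these 5: the median of all genes lies at 0.18 as reported, at -0.27 by library size alone and at -0.65 with DESeq2's size factors, where Grm5 (-0.82), Gabra3 (-1.30) and Gabra4 (-2.02) were also lower. With those size factors 3175 genes were higher and 6338 lower, and by library size alone 3991 and 5470, against 5041 and 4368 as reported. Leaving out tumour 1 moved Grik5 to -1.75, Grin2d to -6.33, Gabrb2 to -4.76, Grin2c to -4.47 and Grm4 to -5.34, each by over 1.5 times in fold; leaving out tumour 2 moved Grin2c to -3.12 and Grin2a to -11.79. With classes of the normal library added to the fit, Gria3 (-1.06, adjusted p = 0.0968), Gria4 (-0.77, adjusted p = 0.133) and Gabrg1 (-0.71, adjusted p = 0.163) were no longer called.

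Against astrocyte-like cells receptor genes were called in both directions. Of the same 34 genes 11 were higher in progenitor-like cells (29.1% of all genes were) and 11 were lower (26.8% of all genes were), with a median log2 difference of 0.00 against 0.10 over all genes. Among the higher genes were Gria3, Gria4, Grik1, Grik3, Grik4, Grm5, Grm7, Gabra3, Gabrb2 and Gabrg3. The lower ones were Gria1, Gria2, Grin2b, Grin2c, Grm3, Gabra2, Gabra4, Gabrb1, Gabrg1, Gabbr1 and Gabbr2. Among all genes, DESeq2's size factors turned 4194 higher and 3868 lower genes into 3272 and 4765. Leaving out tumour 1 moved Grik3 to 1.71, Gabrg3 to 2.81 and Grik1 to 3.76, and the fitted values of Grm7 and Gabra3, which had 0 UMIs in astrocyte-like cells of 1 library, moved without either library. With doublets kept, Grik3 moved to 1.29, Grm5 to 1.28, Grik1 to 1.87, Gria3 to 1.52 and Gabra3 to 2.23 and still passed, while Grik4 (0.77, adjusted p = 0.0946), Grm7 (2.05, adjusted p = 0.0792) and Gabrb2 (1.80, adjusted p = 0.112) did not. With the stricter cell filter Grik3 moved to 3.17 and Grik1 to 5.42.

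**Figure D1:**
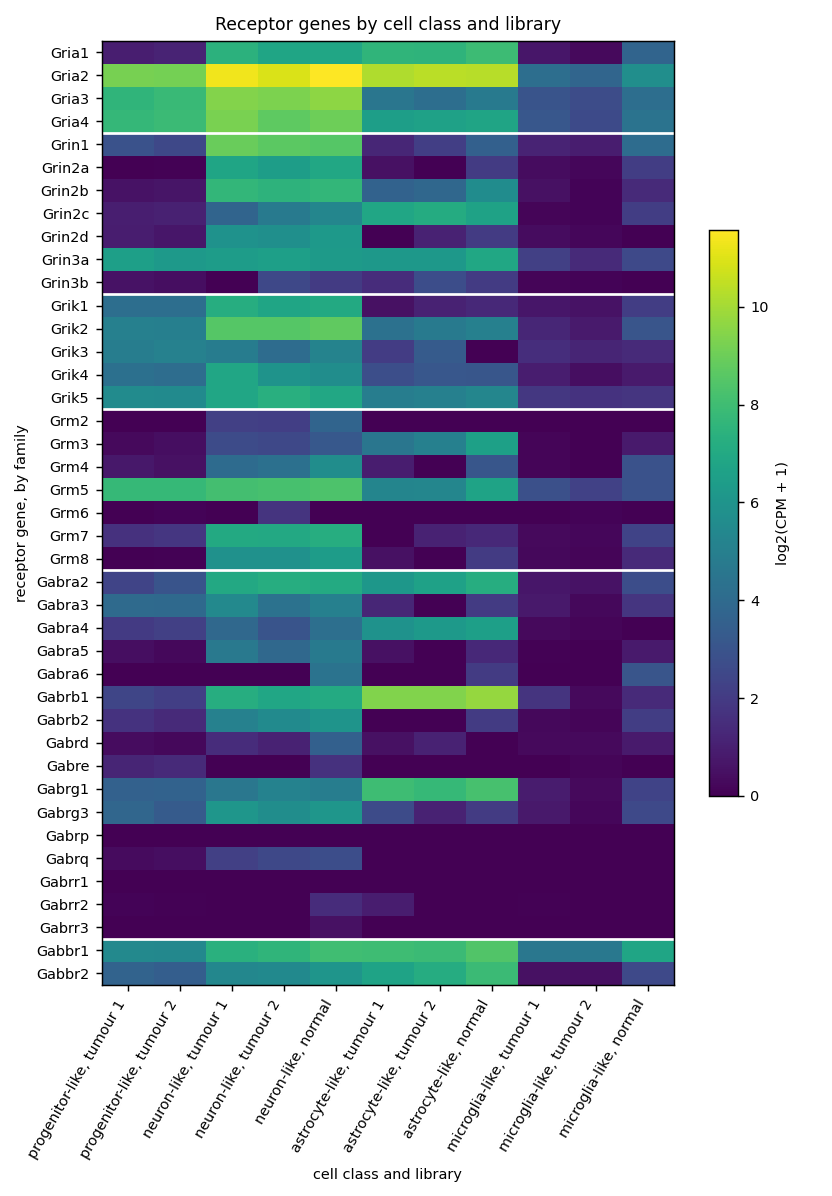
Level of 41 of the 45 receptor genes, as log2(CPM + 1) by colour, in progenitor-like, neuron-like, astrocyte-like and microglia-like cells of each library; rows are genes grouped by family and columns are a class in 1 library. Gria2 is the brightest row, Grm5, Gria3 and Gria4 are bright in progenitor-like columns, and Grin2a and Grm8 are dark there and bright in neuron-like columns.

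The heat map of receptor genes shows which were detected in each class. In progenitor-like cells 35 of 45 receptor genes had more than 3 UMIs in both libraries, 16 averaged at least 10 CPM, and Gabra6 and Gabrr3 had no UMI. In neuron-like cells 33 averaged at least 10 CPM, and in astrocyte-like cells 18 did.

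Among AMPA receptor genes, progenitor-like cells held Gria2, Gria3 and Gria4 at high levels and almost no Gria1. Gria2 stood at 592 and 579.7 CPM in progenitor-like cells of tumour 1 and tumour 2, at 2611, 1944 and 3061 CPM in neuron-like cells of tumour 1, tumour 2 and normal, and at 1183, 1313 and 1292 CPM in astrocyte-like cells. Its progenitor-like values lay below every neuron-like and astrocyte-like value (log2 difference -1.47, SE 0.35, adjusted p = 0.000545 against neuron-like cells; -1.22, SE 0.35, adjusted p = 0.00379 against astrocyte-like cells). With classes of the normal library added, the difference from astrocyte-like cells was -1.05 and did not pass (adjusted p = 0.106). This order leaves out an unnamed cluster of 307 and 116 tumour cells, led by Tsix and Xist and with glial progenitor markers at 3829 and 3596 CPM, which held Gria2 at 2918 and 2801 CPM, above the neuron-like values of tumour 1 and tumour 2. Thinned to 1000 UMIs per cell, 42.7% and 43.5% of progenitor-like cells had a Gria2 UMI, against 1.80% and 1.42% of microglia-like cells of the same libraries, whose share is taken as the background from free RNA. Without thinning these shares were 97.0% and 97.9%, at median depths of 15878 and 21776 UMIs, against 7.71% and 8.85% at 4235 and 8874 UMIs. Thinning left out 9 and 1 progenitor-like and 43 and 8 microglia-like cells. The background may be higher than this share. Summed AMPA receptor genes stood at 32.7 and 23.5 CPM in microglia-like cells and 30.9 and 12.3 CPM in macrophage-like cells. They reached 146 and 50.4 CPM in neutrophil-like cells, and 113 and 113 CPM in T or NK cell-like cells.

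Gria3, encoding GluA3, stood at 193 and 230.3 CPM in progenitor-like cells and at 22.2, 17.1 and 26.2 CPM in astrocyte-like cells. It was higher than in astrocyte-like cells (3.28, SE 0.27, adjusted p = 4.51e-11) and lower than in neuron-like cells (-1.19, SE 0.21, adjusted p = 1.28e-05), where it stood at 689, 636 and 788 CPM. Gria4, encoding GluA4, stood at 207 and 236 CPM, against 89.0, 99.2 and 109 CPM in astrocyte-like and 615, 415 and 516 CPM in neuron-like cells. Both differences passed (1.15, SE 0.27, adjusted p = 0.000582, and -0.72, SE 0.25, adjusted p = 0.0132), but the neuron-like differences of Gria3 and Gria4 did not with normal-library classes added, as given above.

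Gria1, encoding GluA1, the subunit best known from synaptic plasticity, was near 0 in the glioma cells. It stood at 0.935 and 1.23 CPM there, at 172, 110.4 and 114 CPM in neuron-like cells and at 187, 183 and 246 CPM in astrocyte-like cells. The difference was -6.54 (SE 0.30, adjusted p = 3.12e-15) from neuron-like and -7.53 (SE 0.30, adjusted p = 1.35e-16) from astrocyte-like cells. As a share of AMPA receptor UMIs, Gria1 made up 0.0941% and 0.118% in progenitor-like cells, 4.20%, 3.56% and 2.55% in neuron-like cells and 12.6%, 11.4% and 14.7% in astrocyte-like cells.

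**Figure D2:**
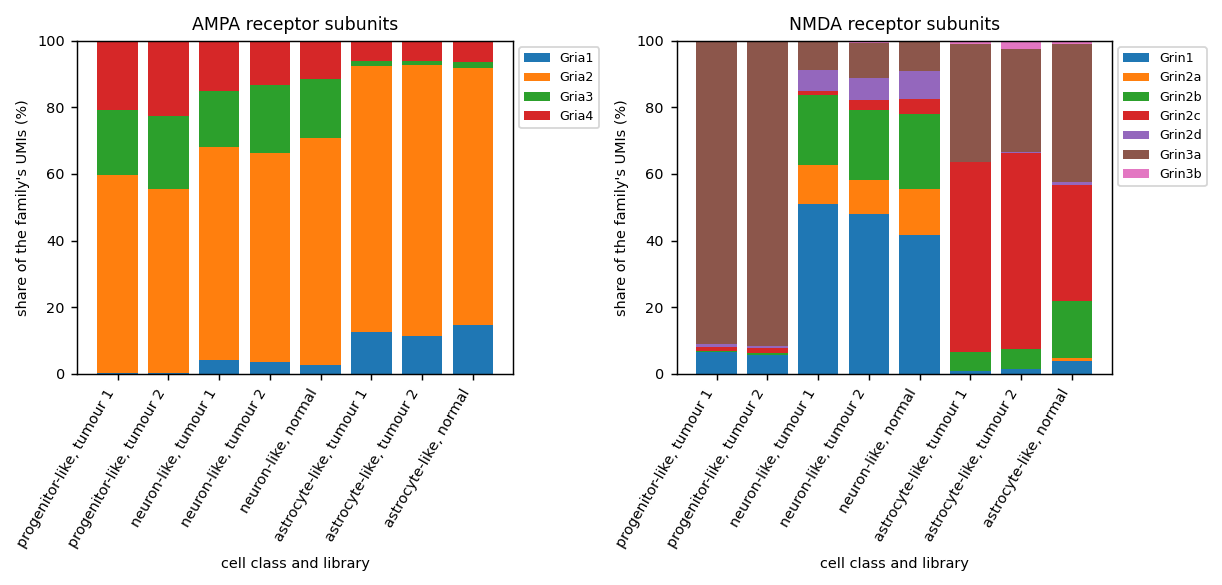
Share of each subunit gene in the summed UMIs of the AMPA (left) and NMDA (right) receptor genes, in percent, per class and library. Gria1 is a visible band only in neuron-like and astrocyte-like cells, and Grin3a takes 90.7% and 91.1% of NMDA receptor UMIs in progenitor-like cells.

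Grin3a held the largest share of NMDA receptor UMIs in progenitor-like cells, as the plot of family composition shows. In neuron-like cells Grin1 did, at 50.9%, 47.9% and 41.6% in the order tumour 1, tumour 2, normal. In astrocyte-like cells Grin2c did in both tumour libraries and Grin3a, at 41.3%, in the normal one. Grin3a, whose GluN3A subunit lowers calcium entry and binds glycine, stood at 91.5 and 75.2 CPM in progenitor-like cells, 84.1, 90.6 and 78.9 CPM in neuron-like cells and 72.1, 71.8 and 120.0 CPM in astrocyte-like cells. These ranges overlap, and neither difference passed (0.34, SE 0.29, adjusted p = 0.311, and 0.12, SE 0.28, adjusted p = 0.733). Grin1, encoding the obligatory GluN1, stood at 6.52 and 4.62 CPM in progenitor-like cells against 485, 403 and 371 CPM in neuron-like cells (-5.86, SE 0.31, adjusted p = 1.72e-14). Astrocyte-like cells held Grin1 at 1.33, 3.42 and 10.8 CPM.

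The glutamate-binding GluN2 subunits were scarce in progenitor-like cells. Grin2a, the GluN2A gene, had 1 and 4 UMIs in these cells in all, against 112, 87.2 and 124 CPM in neuron-like cells (-10.69, SE 0.66, adjusted p = 6.90e-13). Grin2b, the GluN2B gene, stood at 0.482 and 0.564 CPM against 199.8, 178 and 201 CPM (-8.01, SE 0.42, adjusted p = 2.10e-13). Grin2d was lower as well (-5.73, SE 0.49, adjusted p = 2.33e-10). Grin2c, the GluN2C gene, marked astrocyte-like cells, at 116, 137 and 102 CPM, where it made up 57.0%, 58.8% and 34.9% of NMDA receptor UMIs. It stood at 0.965 and 1.10 CPM in progenitor-like cells (-7.03, SE 0.36, adjusted p = 6.98e-14, against astrocyte-like cells). Grin3b stayed between 0 and 5.70 CPM in these 3 classes.

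Kainate receptor genes were all present in progenitor-like cells, at lower levels than in neuron-like cells except for Grik3. Grik5, encoding the high-affinity GluK5, stood at 47.2 and 44.9 CPM against 116, 157 and 123 CPM in neuron-like cells (-1.15, SE 0.26, adjusted p = 0.000313). Grik2, encoding GluK2, stood at 31.7 and 30.8 CPM against 373, 365 and 425 CPM (-3.12, SE 0.25, adjusted p = 3.54e-11). Grik1 stood at 17.3 and 17.4 CPM against 147, 110.4 and 132 CPM (-2.42, SE 0.28, adjusted p = 4.11e-08), and Grik4 at 18.1 and 16.7 CPM against 116, 61.6 and 49.8 CPM (-1.83, SE 0.33, adjusted p = 2.59e-05).

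Grik3, encoding GluK3, stood at 29.4 and 33.2 CPM in progenitor-like cells, 28.0, 16.3 and 35.1 CPM in neuron-like cells and 3.11, 9.12 and 0 CPM in astrocyte-like cells. The progenitor-like values lay within the neuron-like range and above every astrocyte-like value (2.57, SE 0.53, adjusted p = 0.000193). Grik1 was at 0.445, 1.14 and 1.54 CPM in astrocyte-like cells, below progenitor-like cells (4.61, SE 0.65, adjusted p = 1.32e-06). Grik4 was higher than in astrocyte-like cells as well (1.38, SE 0.45, adjusted p = 0.0108), while the difference of Grik2 (0.45, adjusted p = 0.213) and that of Grik5 (0.49, adjusted p = 0.147) did not pass. DESeq2 did not call Grik4 (adjusted p = 0.0675) or Gria4 (adjusted p = 0.109) against astrocyte-like cells.

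Grm5 was the only metabotropic receptor gene above 10 CPM in progenitor-like cells. Its product, mGlu5, couples to phospholipase C. It stood at 214 and 213 CPM in progenitor-like cells, 273, 296 and 323 CPM in neuron-like cells and 37.8, 38.7 and 103 CPM in astrocyte-like cells. The difference from neuron-like cells was 0.01 (SE 0.27, adjusted p = 0.964) as reported and -0.82 with DESeq2's size factors, where Grm5 was called lower (adjusted p = 0.00875 with edgeR), and that from astrocyte-like cells was 2.43 (SE 0.31, adjusted p = 1.67e-07). With cells thinned to 1000 UMIs, a Grm5 UMI was seen in 18.0% and 18.5% of progenitor-like cells and in 0.900% and 0.553% of microglia-like cells.

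Grm3, the mGlu3 gene, stood at 0.211 and 0.335 CPM in progenitor-like, 5.26, 4.65 and 8.24 CPM in neuron-like and 22.2, 31.9 and 95.4 CPM in astrocyte-like cells (-6.70, SE 0.51, adjusted p = 1.61e-10, against the latter). Grm7 stood at 2.16 and 2.56 CPM against 129.7, 127 and 148 CPM in neuron-like cells (-5.30, SE 0.41, adjusted p = 2.55e-11). Against astrocyte-like cells, where it had 0, 1.14 and 1.54 CPM, Grm7 passed narrowly (2.67, SE 1.14, adjusted p = 0.0487), and it did not with DESeq2 (adjusted p = 0.116), nor with DESeq2's size factors, no low-count filter, the stricter cell filter, doublets kept or clustering resolution 2 (adjusted p from 0.0554 to 0.0893 with edgeR). Grm8 (-9.90), Grm4 (-4.54) and Grm3 (-3.65) were lower than in neuron-like cells. Grm2 and Grm6 stayed at or under 12.1 CPM in all 3 classes.

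GABA-A subunit genes had lower summed levels in progenitor-like cells than in neuron-like or astrocyte-like cells of every library. Summed over the family, GABA-A genes stood at 106 and 90.9 CPM in progenitor-like, 733, 683 and 892 CPM in neuron-like and 1074, 1079 and 1414 CPM in astrocyte-like cells. Gabra3, the alpha-3 gene, stood at 15.2 and 14.7 CPM against 42.1, 19.8 and 32.1 CPM in neuron-like cells, a difference that did not pass (-0.46, SE 0.42, adjusted p = 0.342). Astrocyte-like cells held 1.33, 0 and 3.08 CPM of it (4.08, SE 0.73, adjusted p = 3.18e-05), and in tumour 2 the floor of 3 UMIs puts Gabra3 at least 4.31-fold higher in progenitor-like cells.

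Gabrg3, a gamma subunit gene, stood at 13.3 and 8.97 CPM in progenitor-like and 5.34, 1.14 and 3.08 CPM in astrocyte-like cells (1.54, SE 0.53, adjusted p = 0.0157; adjusted p = 0.0815 with DESeq2 and 0.0801 with edgeR without the term for library). Gabrb2 stood at 2.29 and 1.60 CPM in progenitor-like cells and had no UMI in astrocyte-like cells of either tumour library. Its test passed (7.30, SE 2.45, adjusted p = 0.0137; not with doublets kept, 1.80, adjusted p = 0.112), but the floor of 3 UMIs allows only a bound of at least 1.72-fold in tumour 1 and none in tumour 2. Gabra5 (-5.58), Gabrb2 (-3.89) and Gabrg3 (-1.95) were also lower than in neuron-like cells.

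Astrocyte-like cells drew nearly all of their GABA-A transcripts from 1 genomic cluster. On GRCm38, Gabrg1, Gabra2, Gabra4 and Gabrb1 span chr5:70751047-72149037, and this cluster gave 98.2%, 98.6% and 97.4% of GABA-A UMIs in astrocyte-like cells of tumour 1, tumour 2 and normal. It gave 21.1% and 27.9% in progenitor-like and 42.6%, 44.0% and 35.6% in neuron-like cells. Gabre, Gabra3 and Gabrq on chrX:72255999-72842602 gave 15.8% and 18.4% in progenitor-like cells, 6.22%, 3.57% and 4.47% in neuron-like cells and at most 0.218% in astrocyte-like cells. Both shares, taken over class sums, therefore separated the classes in every library. Gabra4 and Gabrb1 overlap on opposite strands, and the strand setting of the counting is not given in the sources used here.

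**Figure D3:**
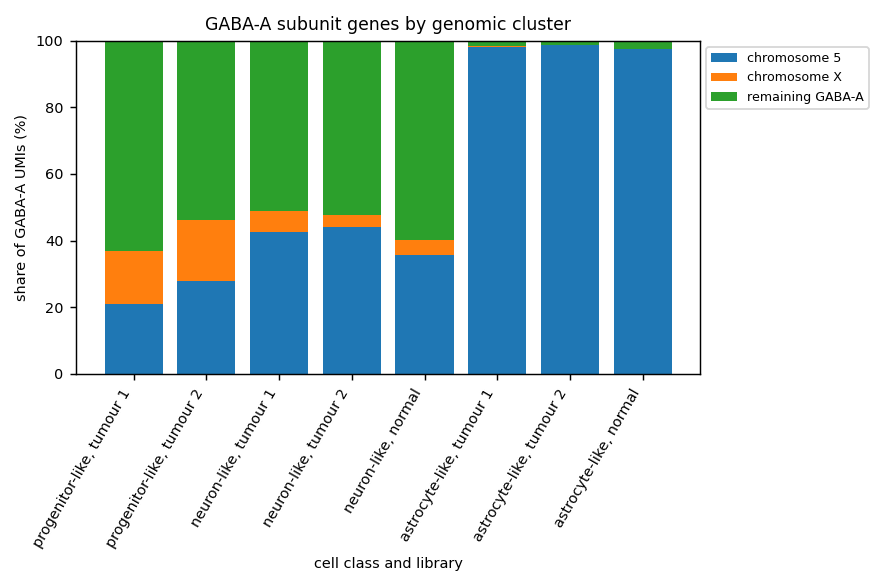
Share of GABA-A receptor UMIs, in percent, from the genomic clusters on chromosomes 5 and X and from the remaining GABA-A genes, per class and library. The chromosome 5 cluster fills at least 97.4% of each astrocyte-like bar, and the chromosome X cluster takes 15.8% and 18.4% of the progenitor-like bars.

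The chromosome 5 share in the plot of genomic clusters rests on the 4 genes whose promoters are printed above. Their sum was 1054, 1064 and 1377 CPM in astrocyte-like cells of tumour 1, tumour 2 and normal. In neuron-like cells it was 312, 301 and 317 CPM. Gabrb1, the beta-1 gene, stood at 674, 674 and 848 CPM in astrocyte-like cells and at 4.40 and 3.44 CPM in progenitor-like cells (-7.57, SE 0.40, adjusted p = 1.08e-14). Gabrg1, the gamma-1 gene, stood at 252, 217 and 292 CPM against 10.9 and 11.3 CPM (-4.51, SE 0.26, adjusted p = 4.90e-14). Gabra2 stood at 69.0, 99.2 and 146 CPM against 4.17 and 7.09 CPM (-4.04, SE 0.29, adjusted p = 7.09e-12), and Gabra4 at 59.2, 75.2 and 90.8 CPM against 2.87 and 3.52 CPM (-4.49, SE 0.38, adjusted p = 4.67e-10). All 4 genes thus had every astrocyte-like value above every progenitor-like one. Gabrb1 (-4.61), Gabra2 (-4.18) and Gabrg1 (-0.95, SE 0.34, adjusted p = 0.0164) were lower than in neuron-like cells as well. For Gabra2 the differences from neuron-like and from astrocyte-like cells were of similar size.

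Both GABA-B receptor genes were lower in progenitor-like cells than in the other 2 classes. Gabbr1, whose product binds GABA, stood at 42.4 and 40.8 CPM in progenitor-like, 165, 187 and 257 CPM in neuron-like and 249.6, 234 and 349 CPM in astrocyte-like cells. The differences were -1.63 (SE 0.22, adjusted p = 3.63e-07) and -2.66 (SE 0.22, adjusted p = 5.05e-11). Gabbr2, whose product couples to the G protein, stood at 11.7 and 9.96 CPM against 40.3, 44.2 and 65.5 CPM in neuron-like cells (-1.51, SE 0.28, adjusted p = 4.83e-05). In astrocyte-like cells Gabbr2 stood at 104, 142 and 234 CPM (-3.59, SE 0.24, adjusted p = 2.95e-12).

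Lists of receptor partners are read against the shares of all genes, 34.9% higher and 30.3% lower than in neuron-like cells, and 29.1% higher and 26.8% lower than in astrocyte-like cells. Of 14 auxiliary subunits of AMPA and kainate receptors 10 were tested, and 5 were higher and 1 lower than in neuron-like cells, with the same counts against astrocyte-like cells. Their median log2 difference was 0.84 and 1.67, against 0.18 and 0.10 over all genes. Cacng4, a transmembrane AMPA receptor regulatory protein (TARP), stood at 410.0 and 439 CPM in progenitor-like cells against 43.8 and 48.8 CPM in neuron-like cells (3.63, SE 0.36, adjusted p = 1.16e-09). Cacng2, the neuronal TARP stargazin, stood at 0.241 and 0.229 CPM against 114 and 142 CPM (-8.53, SE 0.51, adjusted p = 1.03e-11). Neto2, an auxiliary subunit of kainate receptors, stood at 147 and 168 CPM against 45.6 and 31.4 CPM (2.52, SE 0.34, adjusted p = 3.04e-07).

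Of 17 postsynaptic scaffold genes 1 was higher, Homer3 (2.04, SE 0.53, adjusted p = 0.00152), and 14 were lower than in neuron-like cells, among them Shank1 (-5.47) and Dlg4, the PSD-95 gene (-1.73), with a median of -1.83 for the list against 0.18 over all genes and 30.3% of all genes lower. Against astrocyte-like cells 2 were higher and 4 lower, both under the shares of all genes. Of 10 partners of GABA receptors 4 were higher and 4 lower than in neuron-like cells, and 3 higher and 2 lower than in astrocyte-like cells, counts near the shares of all genes. Slc12a5, which exports chloride from mature neurons, stood at 1.16 and 1.04 CPM in progenitor-like cells against 245 and 208 CPM in neuron-like cells (-7.22, SE 0.35, adjusted p = 3.28e-15). Slc12a2, which imports chloride, stood at 129.9 and 105 CPM against 71.9 and 70.9 CPM (1.19, SE 0.35, adjusted p = 0.00430). Partner genes are given with the reported scaling alone. The median of all genes against neuron-like cells moved from 0.18 to -0.65 with DESeq2's size factors, so a difference of this size may depend on the scaling.

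All 3 editing enzymes were lower than in neuron-like cells, and against astrocyte-like cells 2 were higher and 1 lower; of all genes 30.3% were lower in the first comparison, and 29.1% were higher and 26.8% lower in the second. Adarb1, which edits the Gria2 transcript, stood at 22.2 and 17.5 CPM in progenitor-like cells, 186 and 189 CPM in neuron-like cells (-2.77, SE 0.28, adjusted p = 2.25e-09) and 5.78 and 4.56 CPM in astrocyte-like cells (1.74, SE 0.44, adjusted p = 0.00135). Of the 2 delta receptor genes, 1 was higher and 1 lower in each comparison. Of all genes, 34.9% were higher than in neuron-like cells, and the other shares are those just given. Grid1 was the higher one both times (1.01 and 0.90), with the same limit from scaling as Slc12a2.

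Progenitor-like cells fell into 5 states. The hypoxic, extracellular matrix, S phase and G2/M states were named from their marker lists. The last scored under 0.5 on each of these lists and was called after its leading gene Pou3f1. At clustering resolution 2, and with doublets kept, several clusters took this last name. In the order given, the states held 842 and 540, 211 and 174, 431 and 214, 596 and 361, and 2286 and 811 cells of tumour 1 and tumour 2. Of 30 receptor genes tested over all states, 19 differed (47.4% of all 15312 genes did). Without the term for library 5 differed: Gabrb1, Gabbr1, Grik1, Gabra4 and Gabrq.

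Gabrb1 had the lowest adjusted p among the receptor genes tested over states. It stood at 29.2 and 21.8 CPM in the matrix state and between 1.59 and 4.69 CPM in the other 4 states (adjusted p = 1.46e-07 over the 5 states, edgeR). Gabra4 stood at 8.85 and 3.92 CPM in the matrix state, 4.28 and 4.57 CPM in G2/M, 3.89 and 5.84 CPM in S phase, 2.98 and 3.07 CPM in the hypoxic and 1.31 and 1.64 CPM in the Pou3f1 state (adjusted p = 0.00366). Astrocyte markers are given beside this: their summed level in the matrix state was 1719 and 1519.7 CPM, against 922 to 1644 CPM in the other states; 0 of the 12 markers was at 0 in any state. Their part in the Gabrb1 and Gabra4 levels was not tested. In the matrix state the chromosome 5 cluster gave 46.2% and 51.7% of GABA-A UMIs, and in the other states 16.6% to 29.4%. The matrix shares lay above those of the whole neuron-like class in every library. Of the neuron subsets described below, excitatory-like neurons of tumour 1 stood at 53.1% of only 113 UMIs. The other subsets stood at 34.6% to 42.1%. The chromosome X cluster gave 6.39% and 14.9% in the matrix state, the former close to the 6.22% of neuron-like cells in tumour 1.

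The dividing cells differed in other receptor genes. Grik1 stood at 27.1 and 27.1 CPM in G2/M and 22.1 and 18.5 CPM in S phase, against 4.90 to 16.0 CPM elsewhere (adjusted p = 0.00234). Gabbr1 stood at 27.5 and 24.8 CPM in G2/M, below the 35.6 to 56.8 CPM of every other state (adjusted p = 0.000346). Gabrq stood at 0.703 and 0.761 CPM in G2/M and 0.0666 and 0.106 CPM in the Pou3f1 state (adjusted p = 0.00463). Its Pou3f1 values rest on counts at or under the floor of 3 UMIs, so the size of this difference is uncertain. Grm5 was highest in the Pou3f1 state, at 269 and 275 CPM, and stood at 149 and 168 CPM in G2/M, 226 and 221 CPM in S phase, 137 and 202 CPM in the hypoxic and 173 and 113 CPM in the matrix state (adjusted p = 0.0152).

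Gria2 stood at 685 and 662 CPM in the Pou3f1 state and 457 and 454 CPM in G2/M, and the hypoxic state held 526 and 668 CPM (adjusted p = 0.0114). Grik3 stood at 38.9 and 62.0 CPM in the matrix state and 42.3 and 34.6 CPM in the hypoxic state, against 22.3 to 32.5 CPM in the other 3 (adjusted p = 0.00439). Grin3a stood at 109 and 94.2 CPM in the Pou3f1 and 67.5 and 54.4 CPM in the G2/M state (adjusted p = 0.0226). In tumour 1 the hypoxic state, at 59.9 CPM, lay below the G2/M state, and in tumour 2, at 73.8 CPM, above it. The other 10 genes that differed were Gabbr2, Gabra3, Gabrg1, Gabrg3, Grik4, Grik5, Grin1, Gria1, Gria3 and Grm7. With doublets kept, Grin3a (adjusted p = 0.0538), Gria2 (adjusted p = 0.0798), Gria3 (adjusted p = 0.156) and Gria1 (adjusted p = 0.663) did not pass with edgeR. At clustering resolution 2 Grin3a (adjusted p = 0.0818) and Gria3 (adjusted p = 0.100) did not, and with the stricter cell filter Grm7 (adjusted p = 0.144) did not.

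**Figure D4:**
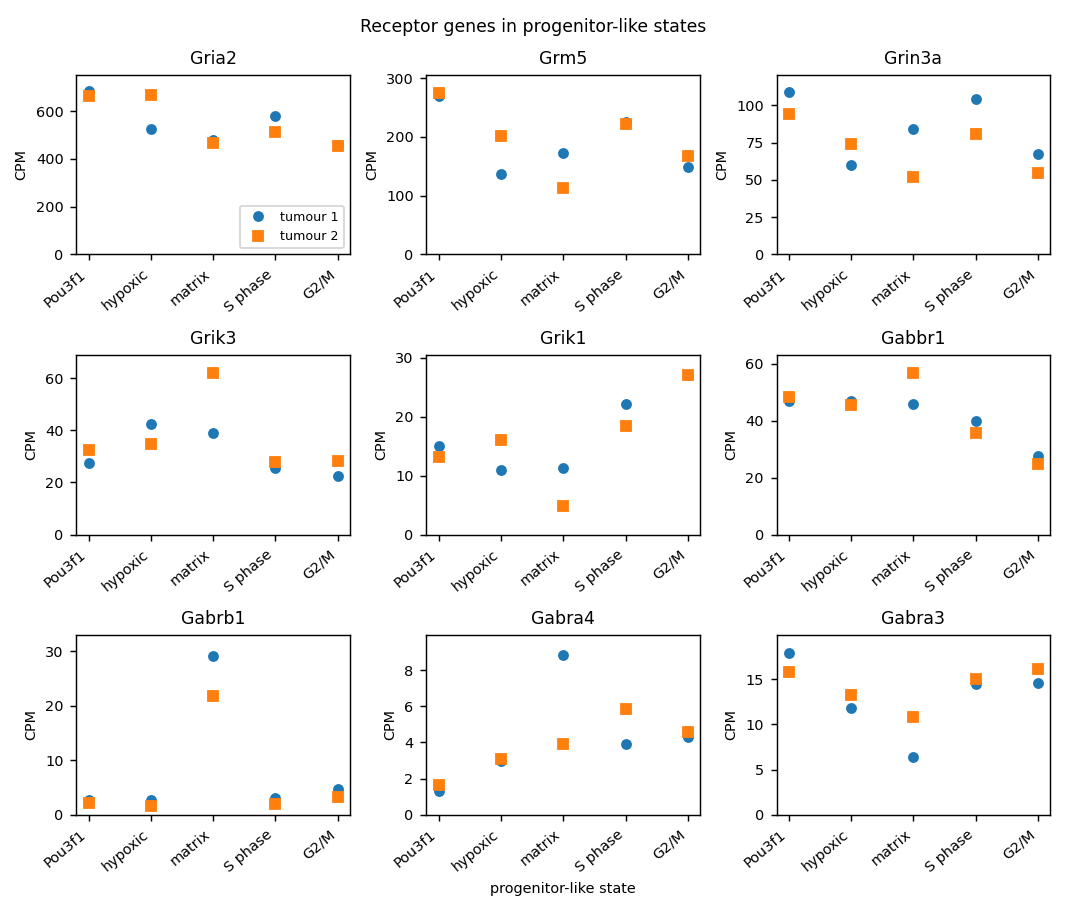
CPM of 9 receptor genes in the 5 progenitor-like states, with 1 point per tumour library and axes starting at 0. Gabrb1 stands out in the matrix state, Grik1 is highest and Gabbr1 lowest in G2/M, and the 2 libraries lie apart for Grin3a and Grm5 in the hypoxic and matrix states.

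The plot of states shows how far the 2 tumour libraries lie apart. Of the 9 genes drawn, Gabrb1, Gabra4, Grik1 and Gabbr1 were also called without the term for library.

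Neuron-like cells were divided by the markers of inhibitory and excitatory neurons, since their subclusters split by library. Cells with a UMI of one set and none of the other numbered 59, 104 and 176 inhibitory-like and 27, 37 and 152 excitatory-like in tumour 1, tumour 2 and normal. Of 29 receptor genes tested, 1 was higher in inhibitory-like neurons (0.418% of all 6700 genes were), and 0 were lower (0.537% of all genes were). At an unadjusted p under 0.05 edgeR listed 4 of the 29 and DESeq2 1, and DESeq2 called 0. Grik2 stood at 425, 388 and 496 CPM in inhibitory-like and 254, 284 and 343 CPM in excitatory-like neurons, higher in all 3 libraries (0.56, SE 0.14, adjusted p = 0.00863). Grik2 did not pass with DESeq2 (adjusted p = 1.00), with doublets kept (adjusted p = 0.463), without the term for library (adjusted p = 1.00) or without tumour 1 (adjusted p = 0.522). Gria2 stood at 2464, 2193 and 2956 CPM in inhibitory-like and 2821, 1709.8 and 3182 CPM in excitatory-like neurons, in no constant order.

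Between neuron-like cells of the tumour and normal libraries, 1 receptor gene passed the test. Of 35 receptor genes tested, 0 were higher in tumour (2.32% of all 10849 genes were) and 1 was lower (0.489% of all genes were). At an unadjusted p under 0.05 edgeR listed 4 of the 35 and DESeq2 listed 1. A p that misses the threshold, with 1 normal library, does not show equal levels. Among AMPA receptor genes Gria2 differed by -0.37 (SE 0.21, adjusted p = 0.544) and Gria1 by 0.35 (SE 0.33, adjusted p = 0.766). Grm4, encoding a presynaptic receptor, had levels of 15.8, 18.6 and 49.4 CPM in the order tumour 1, tumour 2, normal (-1.44, SE 0.42, adjusted p = 0.0787).

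The gene called was Gabra6, the alpha subunit of cerebellar granule neurons. It had 0, 0 and 47 UMIs, which is 20.4 CPM in the normal library (adjusted p = 0.0222, or 0.104 with the stricter cell filter, where it was not called), and by the floor of 3 UMIs it was at least 3.87-fold lower in tumour 1 and at least 5.84-fold lower in tumour 2. In the normal library Gabra6 was also seen at 7.31 CPM in microglia-like and 4.01 CPM in neutrophil-like cells. Markers of cerebellar granule neurons summed to 117, 60.4 and 213 CPM in neuron-like cells, and their part in the Gabra6 difference was not tested. The neuron-like cells of the tumour libraries also held glial progenitor markers at 380 and 302 CPM, against 66.3 CPM in the normal library.

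Astrocyte-like cells of the tumour libraries had lower levels of 5 receptor genes. Of 18 tested, 0 were higher (4.17% of all 9774 genes were) and 5 were lower (3.1% of all genes were). At an unadjusted p under 0.05 edgeR listed 7 of the 18, all lower. Grm3 had levels of 22.2, 31.9 and 95.4 CPM in the order tumour 1, tumour 2, normal (-1.93, SE 0.32, adjusted p = 3.04e-07). Grm5 stood at 37.8, 38.7 and 103 CPM (-1.47, SE 0.30, adjusted p = 0.000102), and Grin2b at 11.6, 13.7 and 49.2 CPM (-2.03, SE 0.45, adjusted p = 0.000434). For these 3 genes both tumour values lay below the normal one. With doublets kept Grm5 was not called (-0.50, adjusted p = 0.239 with edgeR).

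Gabbr2 stood at 104, 142 and 234 CPM (-0.99, SE 0.24, adjusted p = 0.00217) and Gabra2 at 69.0, 99.2 and 146 CPM (-0.88, SE 0.28, adjusted p = 0.0289). Gabra2 did not pass without the low-count filter (-0.81, adjusted p = 0.0933) or with the stricter cell filter (-0.65, adjusted p = 0.210). The abundant astrocytic genes did not pass: Gabrb1 differed by -0.37 (SE 0.20, adjusted p = 0.277), Gria2 by -0.09 (SE 0.20, adjusted p = 0.846) and Grin2c by 0.26 (SE 0.28, adjusted p = 0.670). DESeq2 called 0 of the 18, with 4 at an unadjusted p under 0.05, and gave no adjusted p for Grm3, Grm5 and Grin2b; Gabbr2 (adjusted p = 0.149) and Gabra2 (adjusted p = 0.365) did not pass with it. With doublets kept, 9 genes were lower: Grm5 was no longer among them, and Gabbr1, Gabra4, Gabrb1, Gabrg1 and Gria1 were added. The test takes the spread of the single normal library from the tumour pair, and here the spread was pooled over genes.

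Neuron markers moved with these genes. Summed over 12 markers they stood at 578, 535 and 1363 CPM in astrocyte-like cells of tumour 1, tumour 2 and normal, with Rbfox3 and Syt1, Rbfox3 and Nefl, and Rbfox3 at 0. In neuron-like cells of the normal library Grin2b stood at 201 CPM, Grm5 at 323 CPM and Grm3 at 8.24 CPM. The part of neuron transcripts in the Grm3, Grm5 and Grin2b differences was not tested.

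**Figure D5:**
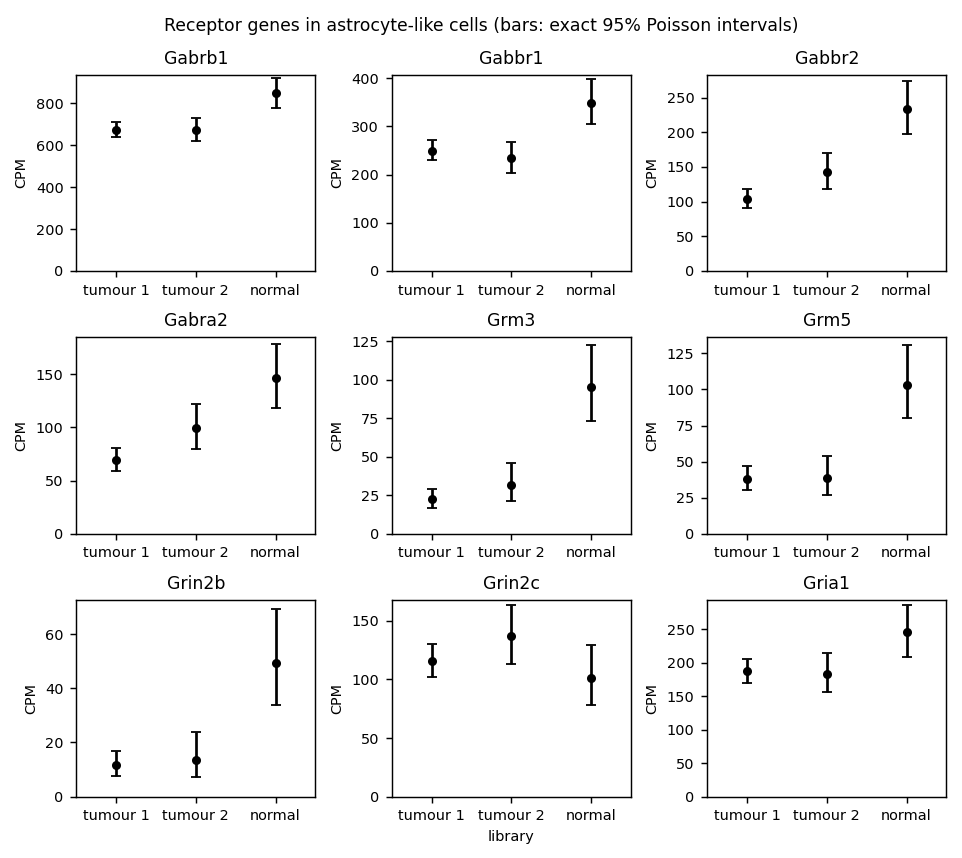
CPM of 9 receptor genes in astrocyte-like cells of tumour 1, tumour 2 and the normal library, with exact 95% Poisson intervals that cover counting error only; axes start at 0. Both tumour intervals end below the normal interval for Grm3, Grm5, Grin2b, Gabbr2, Gabbr1 and Gabrb1. Of these, Gabbr1 and Gabrb1 were not called. Both tumour intervals of Grin2c overlap the normal one.

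The plot of astrocyte-like cells shows counting error alone, with no spread between normal animals. Separate intervals therefore do not amount to a call. Gabrb1 (-0.37) and Gabbr1 (-0.57), whose tumour intervals both end below the normal one, did not pass. Gria1, whose tumour 1 interval ends below the normal one, differed by -0.45 and did not pass (SE 0.23, adjusted p = 0.263).

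Over all cells of a library, 42 receptor genes were tested, and 22 were lower in the tumour libraries (8.36% of all 20449 genes were), while 1 was higher (13.1% of all genes were). Whole-library levels cannot tell fewer cells of a type from less RNA per cell, and neuron-like cells made up 171 of 10550, 309 of 9407 and 607 of 3083 cells. Grin1 stood at 7.01, 5.00 and 85.2 CPM (-3.28, SE 0.31, adjusted p = 0.00841). Grm2 (-5.67), Grm8 (-5.05), Grin2a (-4.81), Grin2b (-4.39), Grm4 (-4.38) and Grin2d (-3.80) were lower too. Also lower were Gabra2, Gabra5, Gabra6, Gabrb1, Gabrb2, Gabrd, Gabbr1, Gria1, Grik2, Grin2c, Grm3 and Grm7. Grik3, the gene that was higher, stood at 21.9, 15.8 and 7.95 CPM (1.79, SE 0.38, adjusted p = 0.0307). Gria2 stood at 471, 293 and 768 CPM and did not pass (-0.47, adjusted p = 0.397). By library size alone, which moves the median of all genes from 0.14 to -0.42, 26 receptor genes were lower and 0 higher, and 1686 of all genes were higher and 3798 lower instead of 2680 and 1710. Without tumour 1, Gabrb1 moved from -2.54 to -3.36 and Gabra5 from -3.80 to -4.45.

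Over 5 classes of immune cells, named B cell-like, T or NK cell-like, macrophage-like, microglia-like and neutrophil-like, summed AMPA receptor genes ranged from 30.9 to 146 CPM in tumour 1, from 12.3 to 113 CPM in tumour 2 and from 50.4 to 101 CPM in the normal library. Summed GABA-A genes reached at most 26.8, 14.3 and 56.0 CPM. Outside these 5 classes, AMPA receptor genes summed to 40.9, 17.7 and 283 CPM in dendritic-like cells, in the order tumour 1, tumour 2, normal, and to 48.5 CPM in tumour 2 and 199 CPM in the normal library in granulocyte precursor-like cells. Oligodendrocyte-like cells were numerous enough in the normal library alone (85 cells), where Gabbr1 stood at 1046 CPM, Gria2 at 296 CPM and Gria4 at 148 CPM. In endothelial-like cells the highest receptor gene was Gria2 in tumour 1 (64.0 CPM, 17 UMIs) and tumour 2 (91.1 CPM, 149 UMIs), and Gabbr1 in the normal library (88.6 CPM, 83 UMIs). The part of free RNA in the levels of these classes was not tested.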

How the data were processed

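The authors deposited raw UMI counts per gene and cell barcode; per the file headers, Cell Ranger 6.1.2 wrote them, and the submitters' processing notes name the mouse build mm10. The strand and intron settings are not given in the sources used here. Cells needed at least 500 UMIs, 300 genes and at most 15% mitochondrial UMIs, and doublets called by Scrublet were removed. Cells were clustered with scanpy 1.11.5 on 2000 variable genes without the receptor genes, at Leiden resolution 1, and clusters were named from 18 marker lists. Counts were summed per class and library where at least 20 cells were present. Sums were tested with edgeR 4.0.16 in R 4.3.3 (quasi-likelihood test, TMM scaling, filterByExpr, Benjamini-Hochberg adjustment over all genes tested, threshold 0.05), with library as a block where both groups came from the same libraries; such sums are paired because each library is 1 tissue sample. Class tests used the 2 tumour libraries and fitted 24 sums of 12 classes together, which left 11 residual degrees of freedom. Their spread comes from all 12 classes and from pooling over genes. Their p-values therefore do not measure replication between the 2 tumours for the compared classes alone. DESeq2 1.42.0, other scalings, filters, doublets kept, resolution 2 and leaving out libraries were alternatives. With 1 normal library, the tumour pair gives the only spread between replicates, and no p-value measures spread between normal animals. Those fits had 1 residual degree of freedom. The spread pooled over genes had a median weight of 17.7 degrees of freedom in neuron-like cells and 4.42 over all cells. In astrocyte-like cells it replaced the spread of single genes. The test of inhibitory-like against excitatory-like neurons had 2 residual degrees of freedom and a pooled weight of 324. Intervals (95%) and the floor of 3 UMIs cover counting error only. The receptor genes, the partner lists and the rule for naming genes were chosen with earlier results of these data known. The rule gives values for every receptor gene called, up to 10 per direction, and the most abundant ones of each class. Some receptor and partner genes enter the counts and sums but are not reported here by name. The split of neuron-like cells into inhibitory-like and excitatory-like was set after their subclusters were seen to divide by library.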

Additional observations from a re-analysis of the deposited data

Results flagged for a closer look

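In 4 genes both tumour libraries lay on one side of the normal library in neuron-like cells and on the other side in astrocyte-like cells; this difference between the classes was not tested. Grik3 stood at 28.0, 16.3 and 35.1 CPM in neuron-like cells of tumour 1, tumour 2 and normal, and at 3.11, 9.12 and 0 CPM in astrocyte-like cells. Grin1 stood at 485, 403 and 371 CPM in neuron-like and 1.33, 3.42 and 10.8 CPM in astrocyte-like cells. Grin2c stood at 12.3, 25.6 and 39.0 CPM in neuron-like and 116, 137 and 102 CPM in astrocyte-like cells. Grin3a stood at 84.1, 90.6 and 78.9 CPM in neuron-like and 72.1, 71.8 and 120.0 CPM in astrocyte-like cells.

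Clusters that met no naming rule held some receptor genes above every named class of their library. A cluster of 307 and 116 tumour cells, with a median of 1431.5 UMIs and led by Tsix and Xist, held Gria2 at 2918 and 2801 CPM, Grin3a at 133 and 112 CPM and Grm5 at 348 and 351 CPM in tumour 1 and tumour 2. In tumour 1 its Grik3 stood at 52.2 CPM, and in tumour 2 its Grik5 stood at 179.8 CPM and its Gria4 at 526 CPM. Its glial progenitor markers summed to 3829 and 3596 CPM. A cluster of 127, 20 and 104 cells, led by Atp13a4 and Etnppl with a median of 1833 UMIs, held Grin2c at 155, 389 and 137 CPM. In it Gabra4 stood at 82.9 CPM in tumour 1, and Gria2 at 2849 CPM, Gria1 at 205 CPM and Gabbr1 at 328 CPM in tumour 2. In the normal library it held Gabrb1 at 881 CPM, Gria1 at 339 CPM and Gabra2 at 268 CPM. Another cluster, led by Ctla2a, Angpt2, Vwf and Cldn5, held Grm6, the receptor of retinal bipolar cells, at 31.5 and 23.1 CPM in tumour 1 and tumour 2.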

How the results depend on the processing

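Some state differences near 0 (log2, hypoxic minus Pou3f1) changed sign: Gria3 went from -0.06 to 0.0060 with the stricter cell filter and to 0.0050, no longer called, with doublets kept, Gabrb1 from -0.15 to 0.0032 with doublets kept, Grik1 from 0.0026 to -0.061 by library size alone and -0.010 with no low-count filter, and Gabbr1 from 0.02 to -0.042 by library size alone. Leaving out 1 tumour library gave -0.34 to 0.10 for Gria2, -0.13 to 0.0041 for Gria3 and -0.40 to 0.36 for Grik1. Among called genes of the other comparisons no difference changed sign, leaving aside genes without an adjusted p from DESeq2, which were not compared. Grm5 against neuron-like cells, not called as reported (0.01), was lower (-0.82) with DESeq2's size factors. With no filter on low counts, 1 receptor gene was higher than in neuron-like cells, as with the stricter cell filter (1, Grik3 both times), and in all cells 3 were higher in tumour. By library size alone 2 genes were lower in tumour neuron-like cells and 0 were higher in tumour over all cells; without the filter 2 were lower in neuron-like cells. With doublets kept these neuron-like cells had 3 lower genes, astrocyte-like cells 9, and inhibitory-like neurons 0 higher. The stricter cell filter called Grm4 and not Gabra6 in neuron-like cells (Gabra6 adjusted p = 0.104 with edgeR). DESeq2 gave 7 genes higher than in astrocyte-like cells, 0 higher in inhibitory-like neurons, 0 lower in tumour neuron-like cells (no adjusted p for Gabra6), 0 lower in tumour astrocyte-like cells and 3 higher over all cells. Leaving out 1 tumour library gave 0 to 1 genes higher in inhibitory-like neurons. The cause of these changes was not tested.

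Without the replicate block for library, 5 receptor genes differed among states, 0 were higher in inhibitory-like neurons, 29 were lower than in neuron-like cells, and 10 were higher and 11 lower than in astrocyte-like cells. Leaving out a library left no residual degrees of freedom in the class, state and tumour comparisons, so those gave values without a test. With classes of the normal library added, 26 genes were lower than in neuron-like cells, 25 of them among the 29. Depth limits the 194 normal astrocyte-like cells and any gene near the floor of 3 UMIs.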

Other observations

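Gria3 was also seen in blood cell classes. In granulocyte precursor-like cells of the normal library it had 339 UMIs in 91 of 247 cells (175 CPM), and in tumour 2 it had 21 UMIs in 8 of 53 cells (39.2 CPM), of which 47.6% came from 1 cell. In dendritic-like cells Gria3 had levels of 7.67, 8.50 and 247 CPM in the order tumour 1, tumour 2, normal, and 25.0% of the normal UMIs came from 1 cell. Grm8 had 8 UMIs in 6 of 43 dendritic-like cells of the normal library. Grm6 UMIs of the endothelial-gene cluster came from 19 of 27 cells in tumour 1 and 56 of 90 in tumour 2.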
